A study of Mus musculus with 15 samples.

Results

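The genes described here are the chemokines and chemokine receptors of the mouse heart, measured on 15 arrays from mice given methamphetamine (meth) or phosphate-buffered saline (PBS). A gene was a member where the accession of a non-control probe mapped, through RefSeq, to a symbol of the Ccl, Cxcl, Ccr, Cxcr or Ackr series or to Cx3cl1, Cx3cr1, Xcl1, Xcr1, Ppbp or Pf4. The rule found 74 probes of 59 genes, among 18350 genes with a symbol on the array. RNA came from whole hearts of C57BL/6 mice that were 8 to 10 weeks old at the start, and each array held the RNA of 1 mouse. Treated mice received methamphetamine hydrochloride by weekly intraperitoneal injection for 5 months, with the dose raised by 2 mg each week to 40 mg/kg at week 20, and control mice received sterile PBS on the same schedule. Among males there were 4 mice on meth and 4 on PBS, and among females 4 on meth and 3 on PBS. Males came from 2 trials, with 2 mice of each treatment from each. By the sample titles every female belonged to trial 1, whereas 3 females, numbers 3 and 4 on meth and number 3 on PBS, carry trial 2 in their source names. Some meth males died before the end and no other mice did, so the male meth hearts are those of survivors.

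Chemokines are small secreted proteins that bind to heparan sulfate on vessel walls and matrix and guide leukocytes that carry the matching receptor. Receptors of the CCR, CXCR, CX3CR and XCR groups signal through inhibitory G proteins to move the cell, while the atypical receptors (ACKR) bind ligand without that signal and remove, transport or present it. In heart muscle the inflammatory ligands are known for drawing neutrophils and monocytes after injury, and the homeostatic ligands for the steady traffic of lymphocytes, dendritic cells and resident macrophages.

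Signals are given as the log2 of the background-subtracted spot intensity minus the log2 of the array's 75th percentile, so that 0 equals that percentile, and a difference of 1 is a doubling. Levels were compared between arrays for the same probe only. Differences between groups came from a limma fit over all 15 arrays with the 4 groups and the trial as terms, with the Benjamini-Hochberg adjustment taken across the 28367 probes that passed the detection filter, and a gene is called where its adjusted p is under 0.05. A gene with several probes is given by the tested probe with the highest mean signal. The arrays lay on 4 slides. Slides 1 and 2 each held 1 trial 1 mouse of every group, slide 3 the males of trial 2, and slide 4 the last 3 females (meth 3, meth 4 and PBS 3). Between 61.4% and 71.4% of the probes on an array were well above background, with the 3 highest shares on slide 4. All 10 cardiomyocyte markers were well above background on every array, and Xist and 4 Y-linked genes separated the labelled sexes. In bulk tissue such as this, fewer cells of a type and less RNA per cell cannot be told apart.

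Most of the family was detectable in the heart, and the CC receptors were detected least. Of the 59 members, 34 were well above background on all 15 arrays (57.6%, against 68.7% of all genes), and 46 were so on at least 3 arrays and were tested (78.0%, against 77.5%). The 10 members that were well above background on no array were the ligands Ccl20, Ccl22, Cxcl2, Cxcl3 and Cxcl15 and the receptors Ccr4, Ccr8, Ccr10, Ccr1l1 and Cxcr1. Cxcr1 and the listed ligands Cxcl2 and Cxcl3 belong to the axis that draws neutrophils, and Ccr4, with its ligand Ccl22, to the axis of skin-homing and regulatory T cells. Ccl1, Ccl28 and Ccr1 were well above background on 1 array each, so they were not tested. By role, all 15 arrays detected 9 of 12 homeostatic ligands, 9 of 15 inflammatory CC ligands, 3 of 6 neutrophil or platelet CXC ligands, 3 of 11 CC receptors, 5 of 8 receptors of the CXC and other types and 3 of 4 atypical receptors. Both interferon-inducible ligands on the array, Cxcl9 and Cxcl10, were detected on all 15 arrays, and Xcl1, the only C ligand, on 7. A single array held between 39 and 46 detected members, and the lowest number came from a male PBS heart and the highest from a male meth heart.

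**Figure D1:**
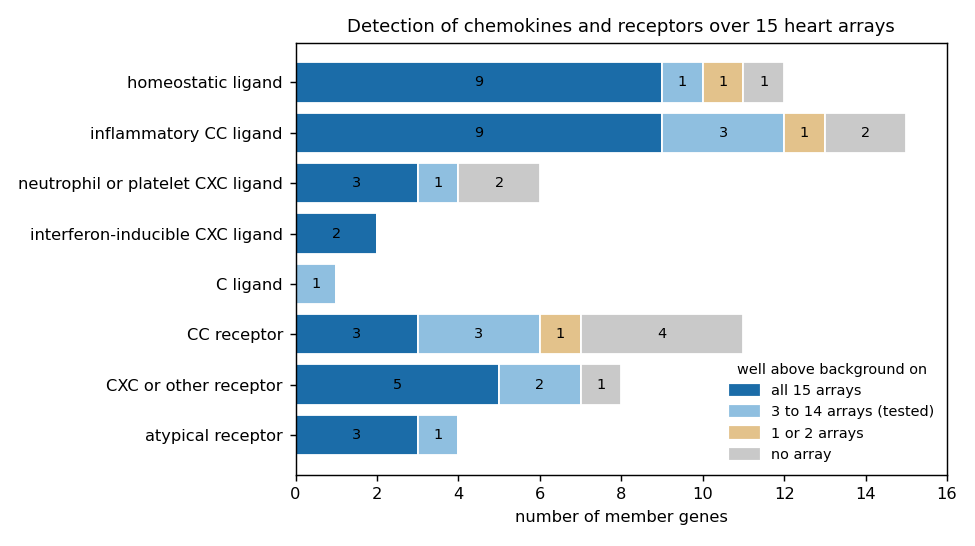
Number of member genes in each role (bars, x axis) by how many of the 15 arrays placed the gene well above background (colours). The CC receptors had the most members detected on no array, 4 of 11, and both interferon-inducible ligands were detected on all 15.

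The tested members included 12 that some arrays missed. Cxcl17 was well above background on all 4 male meth arrays and on none of the other 11. Ccr3 was so on 2 male meth, 2 male PBS and 2 female meth arrays and on no female PBS array, and Cxcl5 on 3 male meth, no male PBS, 4 female meth and 2 female PBS arrays. Xcl1 was detected on 1 male and 6 female arrays. The others were Ackr1, Ccl3, Ccl4, Ccl17, Ccr7, Ccr9, Cxcr2 and Cxcr5.

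Few members passed the test in any comparison. In males, 1 of the 46 tested members was called, Cxcl17, which was higher after meth, against 1.34% of all 14226 genes tested. In females no member was called, against 0.443% of all genes, and averaged over the sexes 2 were called, Cxcl17 higher and Cx3cr1 lower, against 2.23%. A replicate block is a fit that pairs same-numbered mice of each sex within a trial, and same-numbered females share a slide. With it, neither of these average calls held (adjusted p = 0.066 for Cxcl17 and 0.070 for Cx3cr1). The difference between the male and the female response called no member, against 0.155% of all genes. Before adjustment, 10 members in males had a p under 0.05, 5 higher and 5 lower (21.7%, against 13.2% of all genes), and 9 in females, 5 higher and 4 lower (19.6%, against 7.82%). The counts at the unadjusted threshold were 11 for the average over the sexes, where the background was 12.7%, and 8 for the difference between the sexes, where it was 8.11%. By the same count, 6 members differed between male and female PBS hearts (background 15.3%) and 8 between male and female meth hearts (18.6%). The median log2 difference over the tested members was 0.01 in males and 0.04 in females, beside -0.02 and 0.03 over all genes tested.

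Between meth and PBS hearts that did not overlap, the members split in both directions. In males, Ackr4, Ccr2 and Cxcl17 were higher in every meth heart than in every PBS heart (background 5.82%), and Ackr3 and Ccl27a were lower (background 5.76%). In females, Ccl11, Ccr3, Cxcl5 and Cxcl13 were higher (background 4.21%), and Cx3cl1 and Cx3cr1 were lower (background 2.8%). Cx3cr1 and Cx3cl1 are receptor and ligand of the same axis, and their groups overlapped in males.

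**Figure D2:**
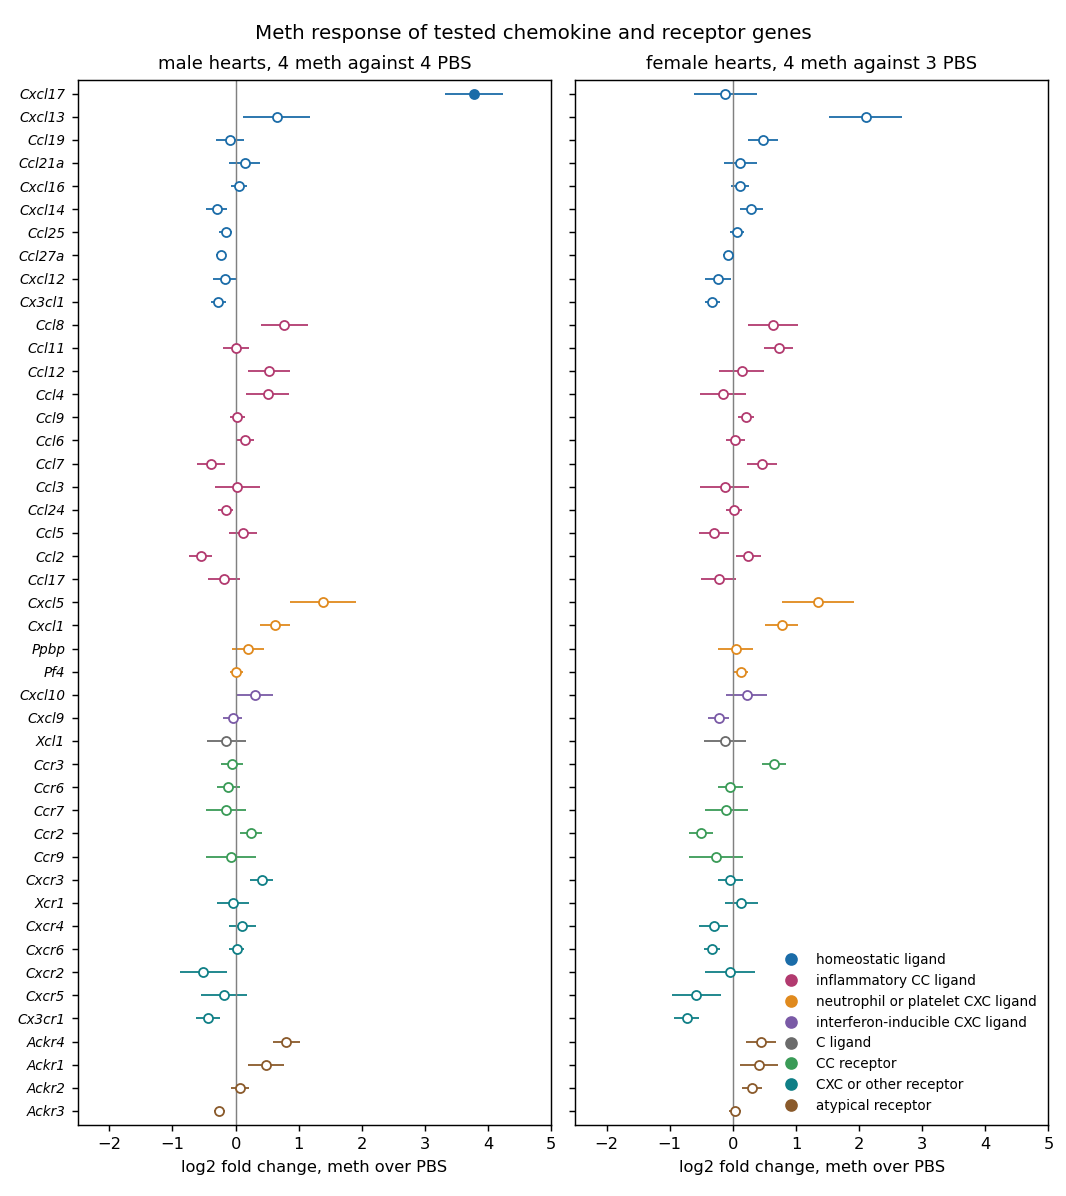
Log2 difference of meth over PBS (x axis, bars are 1 standard error) for the tested members reported here in males (left) and females (right), ordered by role and coloured by it. The filled point is the member with an adjusted p under 0.05, Cxcl17 in males, whose point rests on a PBS level at background, and no female point is filled.

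Cxcl17 is a ligand of mucosal surfaces, where airway and gut epithelium secrete it. In male meth hearts its signals were -3.66, -1.85, -4.02 and -2.71, and in male PBS hearts -6.75, -6.87, -6.96 and -6.77. Female meth hearts gave -5.94, -6.91, -7.58 and -6.23, and female PBS hearts -6.75, -7.09 and -5.78. The 4 male meth hearts stood above all other hearts, which lay at the level of probes that are not well above background. Cxcl17 passed the detection filter through the male meth group alone, so its adjusted p values are not independent of that filter. Because the male PBS level is only a bound, the fold is stated against the lowest signal that counted as well above background on those arrays, and Cxcl17 was at least 6.04-fold higher in male meth than in male PBS hearts (adjusted p = 0.0019). Against female meth hearts the male meth level was at least 10.8-fold higher (adjusted p = 0.0024). On each of slides 1, 2 and 3 every male meth heart was above every male PBS heart. Fitted separately by trial, the male difference had an adjusted p of 0.034 in trial 1 and 0.058 in trial 2, and no size is given, since the PBS side lay at background. With normexp background correction the male difference was not called (adjusted p = 0.89).

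Most of the listed airway markers were higher in the male meth hearts, where Cxcl17 was high. The list was chosen with earlier results of these data known, so the count of markers that rose is not independent of those results. Of 9 airway epithelium markers on the array, all tested, 8 rose in male meth hearts and 1, Bpifa1, a secreted airway defence protein, in female meth hearts, and the summed airway signal was 5.05 to 7.40 in male meth hearts, -0.82 to -0.63 in male PBS hearts, 0.25 to 1.97 in female meth hearts and 0.77 to 1.70 in female PBS hearts. Scgb1a1, the secretoglobin of club cells, was higher by 9.29 in male meth hearts (adjusted p = 2.9e-06), although only 2 of 4 male PBS arrays placed it well above background. Foxj1, the regulator of motile cilia, was well above background on the 4 male meth arrays and on no other, and was at least 4.2-fold higher there than in male PBS hearts (adjusted p = 1.4e-04). Like Cxcl17, Foxj1 passed the detection filter through the male meth group alone, so its adjusted p is not independent of that filter. Bpifa1 was not detected in PBS hearts, and its female meth level was at least 20.8-fold higher than the female PBS level (adjusted p = 0.011), whereas no female array detected Cxcl17. The order of the 4 male meth hearts, with trial 1 mouse 2 highest and trial 2 mouse 1 lowest, was the same for Cxcl17 and for the summed airway signal. The part of airway RNA in the Cxcl17 result was not tested.

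**Figure D3:**
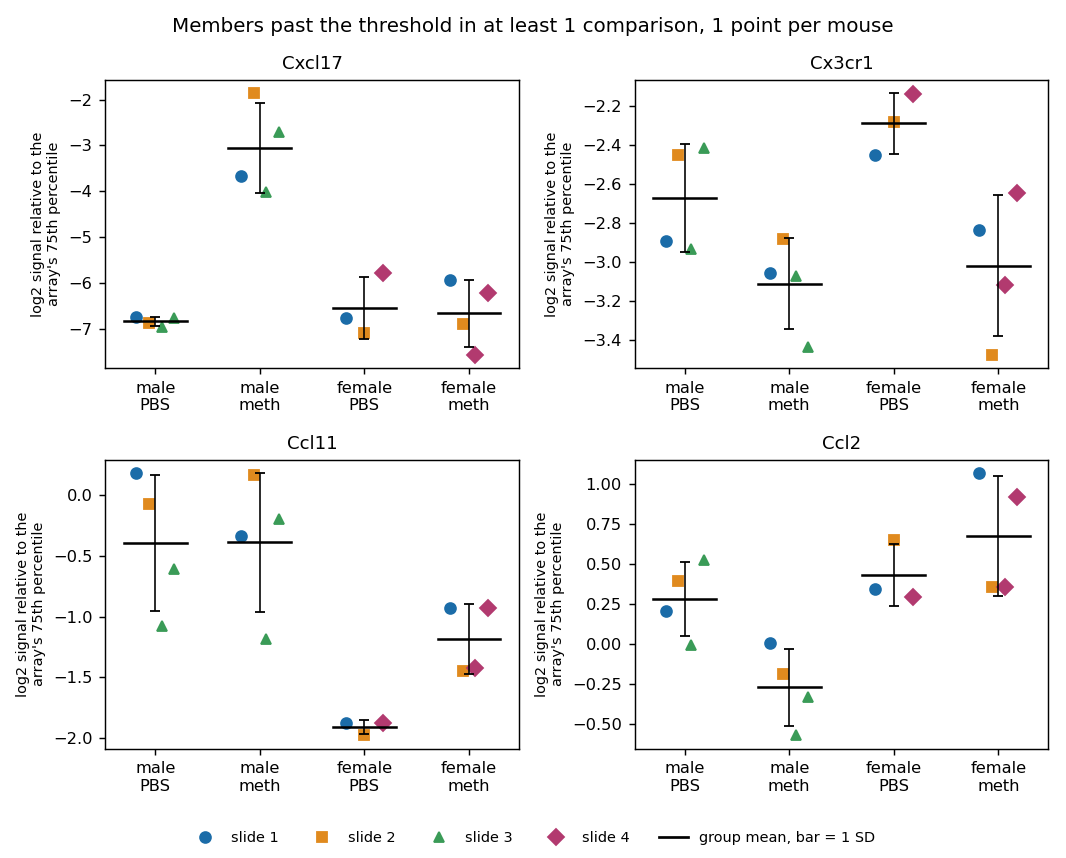
Log2 signal relative to the array's 75th percentile (y axes) for the 4 members called in at least 1 comparison, with a point for each mouse, its slide by colour and shape, and the group mean with 1 SD. Cxcl17 is high in the 4 male meth hearts, Cx3cr1 is lower in meth groups, Ccl11 is lowest in female PBS hearts, and Ccl2 separates male from female meth hearts.

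**Figure D4:**
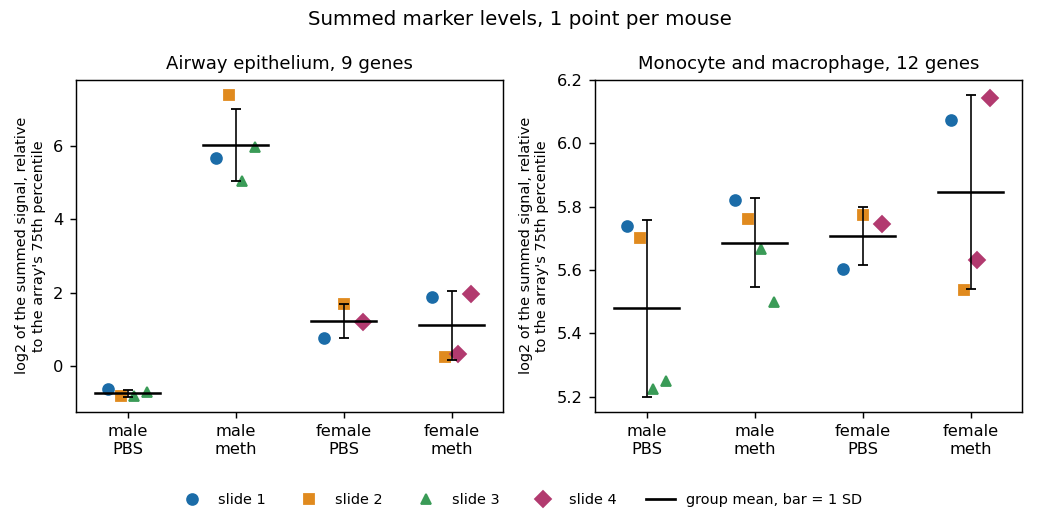
Log2 of the summed signal (y axes) of 9 airway epithelium markers (left) and 12 monocyte and macrophage markers (right) for each mouse by group, with slides by colour and shape and the group mean with 1 SD. The airway sum lies between 5.05 and 7.40 in the male meth hearts and under 2 in all others, while the macrophage sums of the groups overlap.

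Cxcl13, the ligand that draws B cells and some T cells to follicles through Cxcr5, had the largest female difference of the family and was not called. Female meth hearts gave signals of 1.51, -0.77, -1.01 and 1.37, and female PBS hearts -1.58, -2.16 and -1.74. All 4 meth hearts were above all 3 PBS hearts, and mice 1 and 4 lay about 2 units above mice 2 and 3. The difference was 2.10 ± 0.57 (SE, adjusted p = 0.13), and it was positive on each of the 3 female slides, at 3.09, 1.39 and 1.92. In males the signals were -0.58, 0.08, -1.60 and -1.10 after meth and -1.64, -1.50, -1.25 and -1.44 after PBS, and the difference was 0.65 (adjusted p = 0.66). The male difference was 1.32 in trial 1 and -0.01 in trial 2. Averaged over the sexes it was 1.38 (adjusted p = 0.092), and without female meth mouse 3 it was 1.59 (adjusted p = 0.042). No B cell marker of 7 tested was called between treatments, and their summed signal was -0.15 to 0.47 in female meth and 0.48 to 0.62 in female PBS hearts. Cd22, a B cell surface lectin, was higher in male than in female meth hearts by 1.37 (adjusted p = 0.032). Il6, a cytokine of acute inflammation, ranged from -4.80 to -2.04 in female meth and from -5.82 to -5.07 in female PBS hearts, with a difference of 2.21 that was not called (adjusted p = 0.13).

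No other homeostatic ligand was called between treatments. Ccl27a, a ligand for skin-homing T cells, gave 0.42, 0.42, 0.14 and 0.40 in male meth hearts and 0.71, 0.60, 0.48 and 0.53 in male PBS hearts. The male groups did not overlap, and their difference of -0.24 ± 0.07 (SE) was not called (adjusted p = 0.17). Cxcl12, the retention signal for stem cells and lymphocytes that binds Cxcr4 and Ackr3, lay between 4.83 and 5.74 on all 15 arrays, with differences of -0.17 in males and -0.23 in females (adjusted p = 0.77 and 0.78). A second tested Cxcl12 probe did not have lower means after meth. Its means were 0.09 in male meth, 0.06 in male PBS, 0.77 in female meth and 0.57 in female PBS hearts. On that probe all males lay below all females of the same treatment, without a call. Ccl21a, a ligand of lymphatic vessels for Ccr7, ranged from 2.56 to 3.89, with differences of 0.14 and 0.12 (adjusted p = 0.86 and 0.94). The mouse genome holds several near-identical Ccl21 and Ccl27 copies, and the probes of Ccl21a and Ccl27a may read more than 1 of them. Cxcl16, the ligand of Cxcr6 that is also a scavenger receptor, differed by 0.05 in males and 0.11 in females (adjusted p = 0.91 and 0.86).

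Cxcl14, a ligand of epithelia and fibroblasts, was not called in any comparison. Male PBS hearts gave 3.20, 2.70, 2.32 and 1.82, and female PBS hearts 2.06, 1.67 and 2.00. Of the males, only mouse 2 of trial 2 lay within the female range, and the other 3 were above it. The fitted difference between male and female PBS hearts was 0.98 ± 0.20 (SE) and missed the threshold (adjusted p = 0.057), with 1.14 on slide 1 and 1.03 on slide 2. Without the trial term it was 0.60 (adjusted p = 0.43). Meth hearts of the sexes overlapped, at 1.84 to 2.63 in males and 1.81 to 2.47 in females, with a difference of 0.39 (adjusted p = 0.29). Meth was associated with -0.30 in males and 0.29 in females (adjusted p = 0.49 and 0.63), and the difference between these had an unadjusted p of 0.032 and an adjusted p of 0.56.

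Cx3cr1, the receptor of the fractalkine axis, was lower after meth in the average over the sexes, and its ligand was not called. Cx3cl1, fractalkine, is a membrane-bound ligand of endothelium and other cells that can be cut free, and Cx3cr1 is its only signalling receptor, carried by resident macrophages and patrolling monocytes. In male hearts the Cx3cr1 signals were -3.06, -2.88, -3.07 and -3.44 after meth and -2.89, -2.45, -2.93 and -2.41 after PBS. In female hearts they were -2.83, -3.48, -3.12 and -2.65 after meth and -2.45, -2.28 and -2.14 after PBS. The female groups did not overlap, and in males a single meth heart, trial 1 mouse 2, lay within the PBS range. Averaged over the sexes, Cx3cr1 fell by 0.58 ± 0.14 (SE) on the log2 scale, a level 1.50-fold lower (adjusted p = 0.044). Within the sexes the differences were -0.44 for males and -0.73 for females (adjusted p = 0.34 and 0.14), and all 6 within-slide differences were negative, from -0.16 to -1.20. The call was close to the threshold. Of 15 fits that left out 1 array, 2 kept it, those without male PBS mouse 1 of trial 1 and without female meth mouse 4, and the adjusted p of the other 13 was 0.053 to 0.10. In the paired fit with a replicate block, the average difference was -0.65 (adjusted p = 0.070). The second Cx3cr1 probe was well above background on 2 arrays and was not tested.

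Cx3cl1 itself differed in the same direction and was not called. Its signals were 1.23, 1.23, 1.64 and 1.11 in male meth hearts, 1.39, 1.50, 1.58 and 1.82 in male PBS hearts, 1.26, 1.39, 1.09 and 1.11 in female meth hearts and 1.62, 1.57 and 1.42 in female PBS hearts. The female groups did not overlap, and in males the trial 2 mouse at 1.64 lay among the PBS hearts. The average difference was -0.30 (adjusted p = 0.087), with -0.27 in males and -0.32 in females. Without male meth mouse 1 of trial 2, the average difference was -0.34 (adjusted p = 0.049).

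None of 12 monocyte and macrophage markers was called in any comparison between treatments, and all 12 were well above background on every array. Their summed signal was 5.50 to 5.82 in male meth, 5.23 to 5.74 in male PBS, 5.54 to 6.14 in female meth and 5.60 to 5.77 in female PBS hearts, and the groups of each sex overlapped. Csf1r, the growth factor receptor of the lineage, was higher by 0.12 in the average over the sexes and was not called (adjusted p = 0.65). The part of macrophage RNA in the Cx3cr1 values was not tested.

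The promoters of this receptor and its ligand are printed because they are the pair of one axis, with those of Cxcl1 and Cxcl13, the ligands discussed for their higher meth levels. Each is the 250 bases before the RefSeq start in build GRCm38.p6, written along the strand of the gene, with capitals for matches on either strand to GGG followed by any 5 bases and CC, a loose form of the site that NF-kappaB proteins bind, or to TATAAA, the TATA box. Cx3cr1 is on chr9:120068297-120068546 on the minus strand, and the others are on plus strands, Cx3cl1 on chr8:94771930-94772179, Cxcl1 on chr5:90890995-90891244 and Cxcl13 on chr5:95956689-95956938.
Cx3cr1: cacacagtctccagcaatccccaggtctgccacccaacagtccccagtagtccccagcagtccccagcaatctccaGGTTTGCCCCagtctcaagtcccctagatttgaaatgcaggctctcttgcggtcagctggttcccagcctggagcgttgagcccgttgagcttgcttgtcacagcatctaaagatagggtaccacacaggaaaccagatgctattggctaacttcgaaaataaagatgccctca
Cx3cl1: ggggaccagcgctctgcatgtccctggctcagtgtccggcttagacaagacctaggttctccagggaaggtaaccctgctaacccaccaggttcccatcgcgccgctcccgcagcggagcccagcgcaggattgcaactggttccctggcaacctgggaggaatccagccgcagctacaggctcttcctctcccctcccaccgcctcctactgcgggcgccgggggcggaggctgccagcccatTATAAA
Cxcl1: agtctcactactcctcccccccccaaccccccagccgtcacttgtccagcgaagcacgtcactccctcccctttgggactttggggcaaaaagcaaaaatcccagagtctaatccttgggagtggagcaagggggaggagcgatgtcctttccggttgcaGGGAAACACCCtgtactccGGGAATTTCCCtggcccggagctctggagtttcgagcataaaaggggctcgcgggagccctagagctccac
Cxcl13: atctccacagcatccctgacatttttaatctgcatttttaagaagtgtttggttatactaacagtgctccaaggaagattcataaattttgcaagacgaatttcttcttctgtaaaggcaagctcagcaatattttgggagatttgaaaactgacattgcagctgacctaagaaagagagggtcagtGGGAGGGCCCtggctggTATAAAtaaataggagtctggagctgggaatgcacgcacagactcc

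Motif matches in these windows were frequent in the genome as well. The Cxcl1 window held 4 matches to the NF-kappaB letters in 2 overlapping pairs, Cxcl13 held 2 at the same bases on opposite strands, Cx3cr1 held 1, and Cx3cl1 held none, while 45.8% of all 32851 windows of this length held at least 1. A TATAAA match was present for Cx3cl1 and Cxcl13, against 12.4% of all windows. Its first base lay 6 bases before the RefSeq start for Cx3cl1 and 46 bases before it for Cxcl13. Whether either match works as a TATA box was not tested. GC content was 64.8% for Cx3cl1, 59.2% for Cxcl1, 53.6% for Cx3cr1 and 42.0% for Cxcl13.

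The sexes differed in 2 members of a run on chromosome 11, where Ccl2, Ccl7, Ccl11, Ccl12 and Ccl8 lie in this order with no other protein-coding gene between them. Ccl2, Ccl7, Ccl8 and Ccl12 are monocyte attractants that act through Ccr2 and related receptors, and Ccl11, eotaxin, draws eosinophils through Ccr3. Ccl11 signals were 0.18, -0.08, -1.08 and -0.61 in male PBS hearts and -1.87, -1.98 and -1.88 in female PBS hearts. All males were above all females, with the trial 2 males nearer to the females. Ccl11 was higher in male than in female PBS hearts by 1.88 ± 0.25 (SE, adjusted p = 0.0057), the only member called in that comparison, against 0.548% of all genes, and the difference was 2.05 on slide 1 and 1.90 on slide 2. After meth the male signals were -0.34, 0.16, -1.18 and -0.20 and the female signals -0.93, -1.44, -1.42 and -0.93, and males were higher by 1.17 ± 0.24 (adjusted p = 0.025). In that comparison 3 members were called, Ccl11, Cxcl17 and Ccl2, against 2.8% of all genes. The meth difference of Ccl11 was 0.01 in males and 0.72 in females (adjusted p = 0.996 and 0.20), and the female groups did not overlap. Without the trial term the PBS difference between the sexes was 1.51 (adjusted p = 0.064) and the meth one 0.79 (adjusted p = 0.16). The difference between meth hearts of the sexes was also no longer called without male meth mouse 2 of trial 1 (1.06, adjusted p = 0.14) or female meth mouse 3 (1.09, adjusted p = 0.063). Of 27 alternative fits, the Ccl11 call between meth hearts was lost in 7 and that between PBS hearts in 2. A fit with the slide in place of the trial, and one without the slide 4 arrays, kept only Cxcl17 called between meth hearts.

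Ccl2, the main monocyte attractant, was lower in male than in female meth hearts. Its signals were 0.01, -0.19, -0.57 and -0.33 in male meth hearts and 1.07, 0.36, 0.36 and 0.92 in female meth hearts, so the sexes did not overlap. The PBS hearts gave 0.20, 0.40, 0.00 and 0.53 in males and 0.35, 0.65 and 0.29 in females. Male meth hearts were lower than female meth hearts by a fitted difference of -0.85 ± 0.20 (SE, adjusted p = 0.048), with -1.06 on slide 1 and -0.55 on slide 2, whereas the PBS hearts of the sexes differed by -0.05 (adjusted p = 0.94). Meth against PBS gave -0.55 for males and 0.25 for females (adjusted p = 0.21 and 0.74), and the difference between these responses was not called (-0.80, adjusted p = 0.45). The call for Ccl2 held in 2 of 15 fits that left out 1 array, those without female meth mouse 2 or 3, and the adjusted p of the other 13 was 0.054 to 0.18.

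Ccl7 gave a like pattern and missed the threshold. Its signals were -0.71, -0.90, -1.13 and -0.85 in male meth hearts and 0.58, -0.35, -0.15 and 0.67 in female meth hearts, with no overlap, and the difference was -0.92 ± 0.25 (SE, adjusted p = 0.071). Without female meth mouse 2 it was -1.10 (adjusted p = 0.025). The response to meth was -0.39 in males and 0.46 in females (adjusted p = 0.50 and 0.52). The second Ccl7 probe gave the same order of the sexes, from -1.48 to -1.08 in male and from -0.73 to 0.27 in female meth hearts. Ccl9, a ligand made by macrophages, was lower in male than in female meth hearts by -0.49 ± 0.13, not called (adjusted p = 0.068).

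Ccl8 and Ccl12 were not called between treatments. Ccl8 gave 1.25, 1.57, 1.46 and 0.89 in male meth hearts against 1.04, 0.37, 0.50 and 0.16 in male PBS hearts, and 2.44, 1.22, 1.05 and 2.38 in female meth hearts against 0.37, 1.86 and 1.18 in female PBS hearts. Its difference was 0.77 in males and 0.63 in females (adjusted p = 0.41 and 0.63). Female meth mice 1 and 4 were the 2 highest of the 15 hearts for Ccl8, as they were for Cxcl13, Ccl2 and Ccl7. The same mice had macrophage sums of 6.07 and 6.14, against 5.54 and 5.63 for female meth mice 2 and 3, and the part of macrophage RNA in these values was not tested. Ccl12 gave -0.82 to -0.06 in male meth and -1.56 to -0.67 in male PBS hearts, and 0.73, -0.51, -0.61 and 0.62 in female meth and -0.51, 0.40 and -0.14 in female PBS hearts. The groups of each sex overlapped, and its differences were 0.53 in males and 0.14 in females (adjusted p = 0.55 and 0.95). All male PBS hearts lay below all female PBS hearts for Ccl12, without a call (adjusted p = 0.30).

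**Figure D5:**
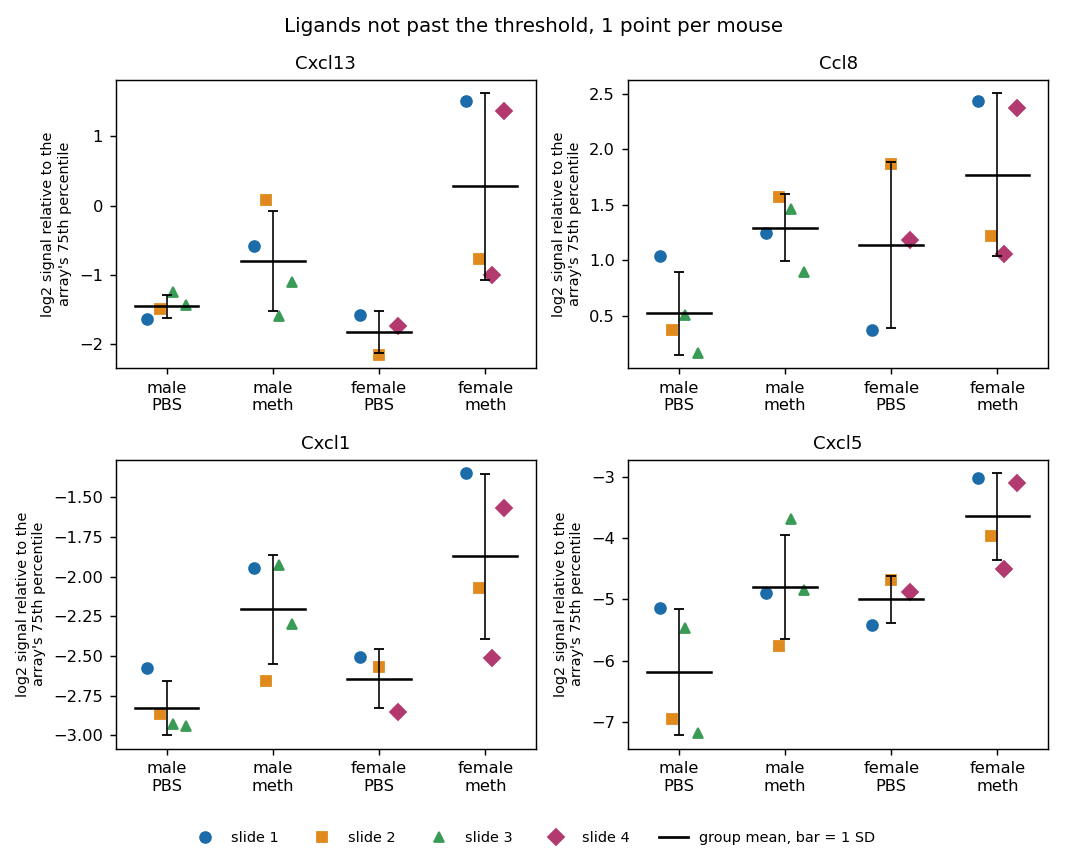
Log2 signal relative to the array's 75th percentile (y axes) of Cxcl13, Ccl8, Cxcl1 and Cxcl5, with a point for each mouse, its slide by colour and shape, and the group mean with 1 SD. The female meth hearts on slide 1 and 1 of the 2 on slide 4, mice 1 and 4, are the highest of the 15 hearts in all 4 panels, and none of these genes was called between treatments.

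Other CC ligands showed smaller differences. Ccl5, a ligand made by T cells and platelets, differed by 0.12 in males and -0.30 in females (adjusted p = 0.88 and 0.73). Ccl3, Ccl4, Ccl6, Ccl17 and Ccl24, attractants of macrophages, T cells and eosinophils, were not called in any of the 6 comparisons either. Over the 12 tested inflammatory CC ligands the differences ran from -0.55 to 0.77 in males and from -0.30 to 0.72 in females, with medians of 0.03 and 0.09.

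Cxcl1 and Cxcl5, ligands that draw neutrophils, had higher mean signals after meth in both sexes, and neither passed the threshold. Cxcl1 binds Cxcr2 on neutrophils, and its signals were -1.94, -2.65, -1.93 and -2.30 in male meth hearts, -2.57, -2.87, -2.93 and -2.94 in male PBS hearts, -1.35, -2.07, -2.51 and -1.56 in female meth hearts and -2.51, -2.57 and -2.86 in female PBS hearts. In each sex 3 of the 4 meth hearts were above all PBS hearts. The differences were 0.62 ± 0.24 in males and 0.77 ± 0.26 in females (SE, adjusted p = 0.28 and 0.24), and their average of 0.70 had an adjusted p of 0.058. All 6 within-slide differences were positive, from 0.21 to 1.16. The average was 0.79 without male meth mouse 2 of trial 1 (adjusted p = 0.039) and 0.80 without female meth mouse 3 (adjusted p = 0.021).

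Cxcl5, a further Cxcr2 ligand known from epithelium and platelets, lay near background. Its signals were -4.91, -5.76, -3.69 and -4.86 in male meth hearts and -5.14, -6.96, -5.47 and -7.18 in male PBS hearts, none of which was well above background. Female meth hearts gave -3.03, -3.96, -4.50 and -3.11 and female PBS hearts -5.42, -4.69 and -4.89, with no overlap. Cxcl5 was at least 1.48-fold higher in male meth than in male PBS hearts, which was not called (adjusted p = 0.28), and the female difference was 1.35 ± 0.57 (SE, adjusted p = 0.39). The average over the sexes had an adjusted p of 0.092, and without male PBS mouse 1 of trial 1 of 0.039. The platelet chemokines were not called, with Pf4 at 3.74 to 4.47 over all hearts (0.01 in males and 0.13 in females, adjusted p = 0.98 and 0.77) and Ppbp at 0.20 and 0.04.

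Of 9 neutrophil markers on the array, 5 were tested, and Ltf, an iron-binding protein of neutrophil granules and of glands, was the only one called between treatments. No male PBS heart had Ltf well above background, and male meth hearts were at least 123-fold higher (adjusted p = 2.2e-05). S100a8 and S100a9, abundant granule-associated proteins of neutrophils, had differences of -0.94 and -0.82 in males and -0.40 and -0.51 in females, none called. Elane, Camp and Ngp were well above background on no array. The summed neutrophil signal was 1.21 to 3.74 in male meth, 2.19 to 3.30 in male PBS, 1.18 to 3.24 in female meth and 2.51 to 2.78 in female PBS hearts. That sum takes in all 9 markers on the array, Ltf among them, so the higher Ltf of male meth hearts is part of it. The median difference over the 5 tested markers was -0.82 in males and -0.40 in females.

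The interferon-inducible ligands Cxcl9 and Cxcl10, which draw activated T cells through Cxcr3, were not called. Cxcl9 lay between -1.56 and -0.38 on all arrays and differed by -0.05 in males and -0.23 in females (adjusted p = 0.93 and 0.71). Cxcl10 gave -2.01, -2.36, -1.32 and -2.04 in male meth hearts and -2.08, -1.78, -2.76 and -2.31 in male PBS hearts, which overlapped, and its differences were 0.30 and 0.22 (adjusted p = 0.73 and 0.89). Xcl1, made by NK and CD8 T cells, differed by -0.15 and -0.12, and the male PBS hearts lay at -6.50 to -5.06, below the female PBS hearts at -4.46 to -4.28. NK cell markers lay in the same order, with a sum of -1.90 to -0.72 in male PBS and -0.43 to -0.03 in female PBS hearts, and their part in the Xcl1 values was not tested.

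Among the CC receptors no treatment difference was called. Ccr2, the monocyte receptor of Ccl2, gave -1.75, -1.97, -1.93 and -1.97 in male meth and -2.05, -2.13, -2.36 and -2.06 in male PBS hearts, and -2.05, -2.67, -2.82 and -2.13 in female meth and -2.11, -1.56 and -2.07 in female PBS hearts. The male groups did not overlap and differed by 0.24 (adjusted p = 0.62), while the female groups overlapped and differed by -0.50 (adjusted p = 0.32). The difference between these responses was 0.75, with an unadjusted p of 0.014 and an adjusted p of 0.47. Ccr3, the eotaxin receptor, was at least 1.57-fold higher in female meth than in female PBS hearts, where no array placed it well above background, and it was not called (adjusted p = 0.18). Its signals were -4.52, -4.91, -5.02 and -5.33 in female meth hearts and -5.37, -5.54 and -5.88 in female PBS hearts, close together at the edge of the groups. The male values of Ccr3 overlapped and differed by -0.06.

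No CXC receptor was called between treatments in the fit over all arrays. Cxcr4, the receptor of Cxcl12, differed by 0.11 in males and -0.30 in females (adjusted p = 0.89 and 0.73). Cxcr2, the neutrophil receptor of Cxcl1 and Cxcl5, gave -4.91 and -5.30 in the trial 1 male meth hearts and -5.67 and -5.74 in the trial 1 PBS hearts, but -5.89 and -5.34 in the trial 2 male meth hearts and -3.84 and -4.15 in the trial 2 PBS hearts. The meth hearts were above the PBS hearts in trial 1 and below them in trial 2. Among males, Cxcr2 was well above background on 1 meth array of trial 1 and on both PBS arrays of trial 2, so no size is given, and the adjusted p was 0.73 in trial 1 and 0.043 in trial 2. Cxcr5, the B cell receptor of Cxcl13, differed by -0.18 in males and -0.58 in females (adjusted p = 0.88 and 0.66), opposite in sign to its ligand. Cxcr6, a receptor of tissue T cells, differed by -0.33 in females with an unadjusted p of 0.023 and an adjusted p of 0.33, and Cxcr3 by 0.41 in males (adjusted p = 0.37).

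Of the atypical receptors, Ackr4 had the largest difference in males. This receptor removes Ccl19, Ccl21 and Ccl25, and its signals were -1.03, -1.35, -0.56 and -0.86 in male meth hearts, -1.54, -1.35, -2.04 and -2.08 in male PBS hearts, -1.03, -1.63, -1.81 and -1.28 in female meth hearts and -2.00, -1.73 and -1.91 in female PBS hearts. The male groups were separated by a narrow margin at trial 1 mouse 2, and the female groups overlapped. The difference was 0.80 ± 0.22 for males and 0.44 ± 0.24 for females (SE, adjusted p = 0.12 and 0.54), and the average was 0.62 (adjusted p = 0.064). In males it was 0.25 in trial 1 and 1.35 in trial 2 (adjusted p = 0.98 and 0.029), and the trials differed with an unadjusted p of 0.0051 and an adjusted p of 0.88. Without male meth mouse 2 of trial 1 the average was 0.71 (adjusted p = 0.041).

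Ackr3, which takes up Cxcl12, gave 3.15, 3.17, 3.20 and 3.35 in male meth hearts and 3.48, 3.56, 3.45 and 3.42 in male PBS hearts, without overlap. The difference was -0.26 ± 0.09 (SE, adjusted p = 0.24), and in females it was 0.03 (adjusted p = 0.96). Ackr1, the endothelial and red cell receptor that presents many ligands on venules, differed by 0.48 in males and 0.41 in females (adjusted p = 0.52 and 0.71). A second tested Ackr1 probe differed by -0.22 in males, where no array placed it well above background, and by 0.02 in females. Ackr2, the scavenger of inflammatory CC ligands, differed by 0.07 and 0.30, neither of them called.

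None of the 25 tested genes of chemokine receptor signalling, the 17 tested inducers and inducer receptors or the 11 tested genes of processing and binding was called in any comparison between treatments. Of 20 tested adhesion genes of leukocyte entry, 1 rose, Vcam1, the endothelial ligand of the integrin with the alpha 4 chain, by 0.50 ± 0.11 averaged over the sexes (SE, adjusted p = 0.034), with 0.55 in males and 0.46 in females, neither called alone. Vcam1 ranged from 1.94 to 2.19 in male meth, 1.36 to 1.66 in male PBS, 2.14 to 2.76 in female meth and 1.88 to 2.11 in female PBS hearts, so that the groups of each sex did not overlap. No marker of T cells (9 tested), B cells (7), NK cells (5), dendritic cells (4), mast cells and eosinophils (3) or platelets (8) was called between treatments.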

How the data were processed

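Heart RNA of 15 mice was hybridised singly to 1-colour Agilent 4x44K arrays with Cy3. The deposited scanner files hold, per the file headers, the background-subtracted spot intensity from Feature Extraction 10.5.1.1, whereas the submitters' processing notes name version 9.1. A further deposited table from the authors holds log2 values, which differed from the log2 of that intensity by 1 constant per array. Outlier spots were removed, spots of a probe were averaged, and the 75th percentile of each array was subtracted on the log2 scale. A probe entered the test, by limma 3.58.1 in R 4.3.3 (two-sided, Benjamini-Hochberg threshold 0.05), if 3 or more arrays flagged it well above background. Python 3.11.15 with pandas 2.3.3 and matplotlib 3.10.9 made the summaries. Probes were named through the RefSeq accession, which gave a symbol for 26918 of 41174 probes. Because low signals carry only a bound, "at least" folds set the brighter group's mean against the dimmer group's mean of, per array, the lowest signal among probes well above background or the probe's own signal, whichever was higher. The number of arrays limits the precision, and p-values measure the spread between mice. No spot was saturated.

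The genes named are those called in any of 6 comparisons, the 8 with the largest differences in each sex and a list of well-known members, 28 in all, of which 1 is not reported here. The members and gene lists were chosen with earlier results of these data known. Same-numbered females share a slide, and their deviations from the group means correlated at 0.30, 0.44 and 0.66. The same correlations in males were -0.09 to 0.01 once the trial was removed. With 2 mice of each treatment per trial, these values cannot settle whether male numbers pair. The main fit paired no mice, and the replicate block paired same-numbered mice of both sexes within a trial. Alternatives were normexp on the median spot signal, quantile and median scaling, a floor, other detection filters, the deposited table, the trial and slide terms, a replicate block, each trial, the methods' t-test and each array left out. The fits without the slide 4 arrays were chosen after seeing the data. On simulated data for the male comparison with 200 probes changed by 2 on the log2 scale, among 28329 probes, 93.5% of the changed probes were recovered and 6.97% of the calls were unchanged probes. The simulation held only changes of 2. Male differences of all tested members except Cxcl17 were smaller, and recovery at those sizes was not examined.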

Additional observations from a re-analysis of the deposited data

Results flagged for a closer look

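Cxcr5, the B cell receptor of Cxcl13, was low in male PBS mouse 1 of trial 1, at -4.03, while the nearest of the other 3 male PBS hearts was at -3.32. It was noted because its gap to the nearest heart took up more of the group's range than Dixon's critical value for 4 samples allows, which chance does in about 1 in 20 groups. Of 84 groups of 4 screened, this was the only one past the limit.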

How the results depend on the processing

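The gene differences recomputed under all alternatives kept their sign, which does not cover male differences taken by trial alone, where Cxcl13 was 0.65 over both trials and -0.01 in trial 2, and Cxcr2 had opposite signs in the trials. The deposited log2 table changed no call, and the second probes added none. Cxcl17, Ccl11 and Ccl2 have a single probe and the second Cx3cr1 probe was not tested, so second probes could not alter those calls. The male count of 1 called member became 0 with normexp correction, with the filter on all 15 arrays (which leaves Cxcl17 untested), with the trial 1 arrays alone and with the methods' t-test, paired or unpaired, and 2 in trial 2 (Ackr4, and Cxcr2 with meth hearts not well above background). It was 1 in every fit that left out 1 array. The female count was 0 under all 31 alternatives. For the average over the sexes the count of 2 became 0 with normexp, the replicate block and the trial 1 arrays alone, and 1 with no filter, no trial term or the slide 4 arrays left out, and leaving out 1 array gave 1 to 3. For the male minus the female response the count of 0 became 1, Cxcl17, with quantile scaling or no trial term, and leaving out 1 array gave 0 to 1. Between PBS hearts the count of 1 became 2 with the median shift, the filter on all 15 arrays, the trial of the source names or the slide block, and 0 with no trial term or the slide 4 arrays left out, and leaving out 1 array gave 1 to 2. Between meth hearts the count of 3 became 0 with normexp, 5 with the trial of the source names, and 1 with the slide block or the slide 4 arrays left out, and leaving out 1 array gave 1 to 5. With the replicate block, the paired analysis, the average call of Cxcl17 was lost (limma, adjusted p = 0.066), as was that of Cx3cr1 at -0.65 (adjusted p = 0.070). The block changed no other call between treatments, and it was not fitted for the comparisons between the sexes. Apart from the construction of the filter, the cause of these changes was not tested. Naming members by the scanner files' gene-name column was not run, since the files used have no such column, and normexp used the median spot signal. Signals near background, such as those of Cxcl17 in 11 hearts, limit what these arrays resolve.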
